A study of Homo sapiens with 48 samples.

Results

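Nuclear genes that transcribe, copy and protect the mitochondrial genome are described here across every condition of the study. There are 10 of them, chosen by name: the transcription genes TFAM, TFB2M, POLRMT, TEFM and MTERF1, the replication genes TWNK, POLG and POLG2, and the RNA-binding genes LRPPRC and SLIRP. All 10 were found by their Ensembl identifier among 48898 genes of the count table, and all 10 passed the filter on low counts in each experiment. The table holds poly(A) RNA counts from 48 libraries in 16 groups of 3. The cells were IMR-90, fibroblasts from fetal lung, and SK-MEL-103, a melanoma line. Senescence was induced with doxorubicin, a topoisomerase II poison that damages DNA, at 200 nM for 48 h. In each line 5 groups received an siRNA on the day before the drug and gave RNA on day 7: a control siRNA, siMFN1, siMFN2, siMFN1+2 or siMAVS. Proliferating cells that carried the control siRNA, without the drug, made the sixth group. In IMR-90 alone, a separate experiment left treated cells until day 7 and then gave DMSO, 20 µM MFI8 or 10 µM BI for 48 h, with RNA taken on day 9, next to proliferating cells in DMSO. MFN1 and MFN2 encode the mitofusins, which fuse the outer membranes of mitochondria, and MAVS encodes an antiviral signalling protein anchored in that membrane. The labels describe MFI8 as a mitofusin inhibitor and BI as an activator. They do not say whether the 3 libraries of a group were separate cultures, so every p below measures only the spread between libraries, which may be technical. Each line is a single cultured population, and the siRNA groups of 1 line share their control groups.

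The mitochondrial genome is a small circular DNA present in many copies per cell, packed by TFAM into nucleoids. It encodes subunits of the respiratory chain together with ribosomal and transfer RNAs, and every protein that reads or copies it is imported from the cytoplasm. TFAM bends promoter DNA and recruits POLRMT, the single-subunit RNA polymerase, TFB2M opens the promoter, and TEFM keeps the polymerase moving. MTERF1 binds a site just downstream of the ribosomal RNA genes. TWNK is the replicative helicase, POLG the catalytic subunit of the DNA polymerase and POLG2 its accessory subunit. LRPPRC binds mitochondrial mRNAs together with SLIRP and protects them from decay. Nuclear respiratory factor 1 (NRF1) and the ETS factor GABP are textbook activators of several of these genes. The design asks whether the nuclear regulators follow the mitochondrial mRNA level, which differs widely between the groups.

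Promoters are shown because several of the 10 genes had lower counts together after doxorubicin. RefSeq promoter windows on GRCh38.p14 were at hand for 9 of the 10 genes, and the 250 bases before each start were searched on both strands. The NRF1 motif, GCGCA, then any base, then GCGC, was in the windows of TFAM, POLRMT and POLG2, and in 5.07 % of 35116 windows of all genes. The ETS motif CCGGAAG was in those of MTERF1, POLG2, POLRMT and SLIRP, and in 8.52 % of all windows. The 2 motifs did not overlap where both occurred. The NRF1 matches of TFAM and POLRMT lie before a RefSeq start but inside exons of the annotation given in the next paragraph. They are thus downstream of the gene start in that annotation. The other matches printed below lie outside its exons. A match describes letters and is not a bound site. The window of TWNK was not used here, and the windows of TFB2M, TEFM, POLG and LRPPRC held neither string of letters. Stretches of 30 bases follow for 5 genes, read 5′ to 3′ on the strand of the gene, with the matched motif (or the 2 overlapping NRF1 matches of POLRMT) in capitals.
TFAM, NRF1 motif, chr10:58385337-58385366, plus strand: acgctctcccGCGCCTGCGCcaattccgcc
POLRMT, NRF1 motif, chr19:633539-633568, minus strand: ggcgcggGCGCATGCGCAGGCGCgggccgg
POLG2, NRF1 motif, chr17:64497055-64497084, minus strand: cacgctcacctccgttGCGCCTGCGCcgtg
MTERF1, ETS motif, chr7:91880734-91880763, minus strand: gcgacccgaggCCGGAAGttagtcttttcc
SLIRP, ETS motif, chr14:77708016-77708045, plus strand: taccctctgatCCGGAAGcagattctctcg

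On GRCh38, in the GENCODE 29 annotation, the 10 protein-coding genes lie on 8 chromosomes. The transcription genes are TFAM (ENSG00000108064, chr10:58385022-58399221, plus strand), TFB2M (ENSG00000162851, chr1:246540560-246566324, minus), POLRMT (ENSG00000099821, chr19:617224-633604, minus), TEFM (ENSG00000172171, chr17:30897336-30906820, minus) and MTERF1 (ENSG00000127989, chr7:91692008-91880720, minus). The replication genes are TWNK (ENSG00000107815, chr10:100987367-100994401, plus), POLG (ENSG00000140521, chr15:89305198-89334861, minus) and POLG2 (ENSG00000256525, chr17:64477785-64497036, minus). The RNA-binding genes are LRPPRC (ENSG00000138095, chr2:43886508-43996005, minus) and SLIRP (ENSG00000119705, chr14:77708071-77761104, plus). TFAM and TWNK share a chromosome but are far apart on it, as are TEFM and POLG2. The table gives 1 count per gene, so its transcripts are not separated.

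Libraries held 15206115 to 79204217 counts, and depth went with the replicate number. Number 1 libraries held 53390716 counts or more, those of number 2 between 30176556 and 50828283, and those of number 3 at most 31127306, with 1 library of each in every group. The siRNAs lowered their targets in every case tested: MFN1 fell from 51.4 to 7.67 CPM (counts relative to the library size, scaled by the trimmed mean of M-values, TMM) with siMFN1 in IMR-90, and its log2 fold change was -1.56 in SK-MEL-103. MFN2 had log2 fold changes of -3.2 and -2.29 with siMFN2, and MAVS of -1.52 and -1.42 with siMAVS, in IMR-90 and SK-MEL-103. The fibroblast marker COL1A1 had a median of 12400 CPM over 30 IMR-90 libraries. Of 8 melanocyte and melanoma markers, SOX10 and PAX3 were high in SK-MEL-103 (medians 563 and 15.9 CPM over 18 libraries) and near 0 in IMR-90, but MITF was lower in SK-MEL-103 than in IMR-90 (8.78 against 43.5 CPM). The pigment genes PMEL, MLANA, TYR and DCT were near 0 in both lines (MLANA median 0), so that line lacks the differentiated melanocyte markers. The summed level of 8 fibroblast markers was higher with doxorubicin, from 8200 to 25300 CPM in proliferating IMR-90 to 25800 to 41700 CPM on day 7. In SK-MEL-103 it went from 23.5 to 78 CPM to 213 to 252 CPM, and in the day 9 experiment from 7060 to 8610 CPM to 14800 to 27400 CPM. Of the 8, 3 rose in IMR-90 on day 7, 5 in SK-MEL-103 and 6 on day 9. Epithelial, endothelial and leukocyte markers summed to 0.536 to 6.14 CPM over all libraries, with KRT5 at a median of 0 in both lines. Of those 9, 3, 3 and 1 rose in the same settings, where only 5 of the 9 were tested in IMR-90 on day 7. Among all genes tested, 27.4 %, 29.8 % and 28.8 % rose. The part of these markers in the results below was not tested.

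The 10 genes varied together between libraries of 1 group, most often in IMR-90, and this bears on the results of those groups. In proliferating IMR-90 with the control siRNA, library 2 was the lowest of the 3 for 10 of 10 genes. Library 3 was lowest for 8 genes in the doxorubicin group with the control siRNA, for 9 with siMFN1, for 9 with siMFN2 and for 6 with siMFN1+2. With siMAVS it was library 1, for 9 genes. In the day 9 experiment library 2 was lowest for 9, 8 and 9 genes in DMSO, MFI8 and BI, but the proliferating libraries 1, 2 and 3 were lowest for 2, 5 and 3 genes. In proliferating SK-MEL-103 library 1 was lowest for 8 genes and library 2 highest for 8. No library of the treated SK-MEL-103 groups was lowest for more than 5. TWNK, the helicase, showed the widest spread: its highest library was a median of 3.37 times its lowest over the 10 IMR-90 groups, reaching 4.74 with siMAVS, against 1.16 over the 6 SK-MEL-103 groups. POLRMT was steady, at 1.17 in both lines, and so was POLG, at 1.14 and 1.12. Whether depth, culture or another property of the library goes with this was not tested.

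**Figure D1:**
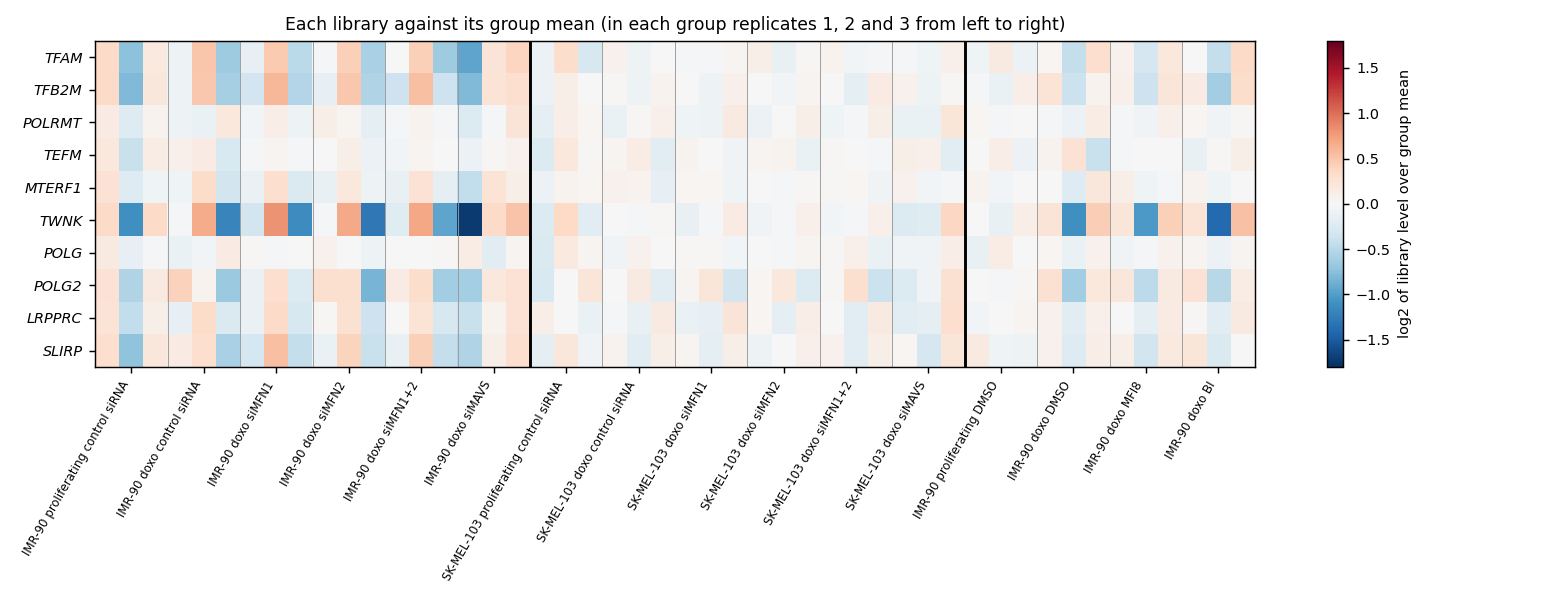
Level of each gene (rows) in each of the 48 libraries (columns) relative to the mean of its group, as log2 of TMM-scaled CPM, with blue below and red above the mean. Columns of 1 library are blue for most genes at once in the IMR-90 groups, most deeply for TWNK, while the SK-MEL-103 groups (between the thick lines) are pale.

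Group levels are TMM-scaled CPM, means ± SD over n = 3 libraries. Such a level is a share of the library, so it says nothing of molecules per cell. Fewer expressing cells and less RNA per cell cannot be told apart in bulk RNA. TFAM had the widest range over the 16 groups, from 136 ± 30.6 CPM in proliferating SK-MEL-103 to 26.4 ± 10.2 CPM in doxorubicin-treated IMR-90 with the control siRNA, 5.16 times. TWNK ranged from 71 ± 18.1 to 19.7 ± 13.2 CPM (3.6 times), TFB2M from 52.3 ± 3.87 to 16.2 ± 3.54 CPM (3.23 times) and SLIRP from 59.8 ± 7.85 to 23.1 ± 2.96 CPM (2.59 times). The other genes spanned 2 times or less. POLG2 did so from 17.8 to 8.92 CPM, LRPPRC from 187 to 95.2, MTERF1 from 18.9 to 9.88, POLRMT from 89.4 to 52, POLG from 94.6 to 56.9 and TEFM from 12 to 8.23. The 3 proliferating groups held ranks 1 to 3 for TFAM, TFB2M, LRPPRC, POLG, MTERF1 and TEFM. POLG2 and TWNK were ordered by cell line instead, with 5 of the 6 highest POLG2 groups and the 6 highest TWNK groups from SK-MEL-103. Neighbours in the order of levels mostly overlapped: of 15 neighbouring pairs, between 13 and 15 had overlapping libraries for each gene. Per kilobase of annotated exon the median group level was highest for SLIRP (21.1 CPM per kb), LRPPRC (18.9) and POLRMT (16.9), and lowest for TEFM (3.65) and MTERF1 (2.66).

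**Figure D2:**
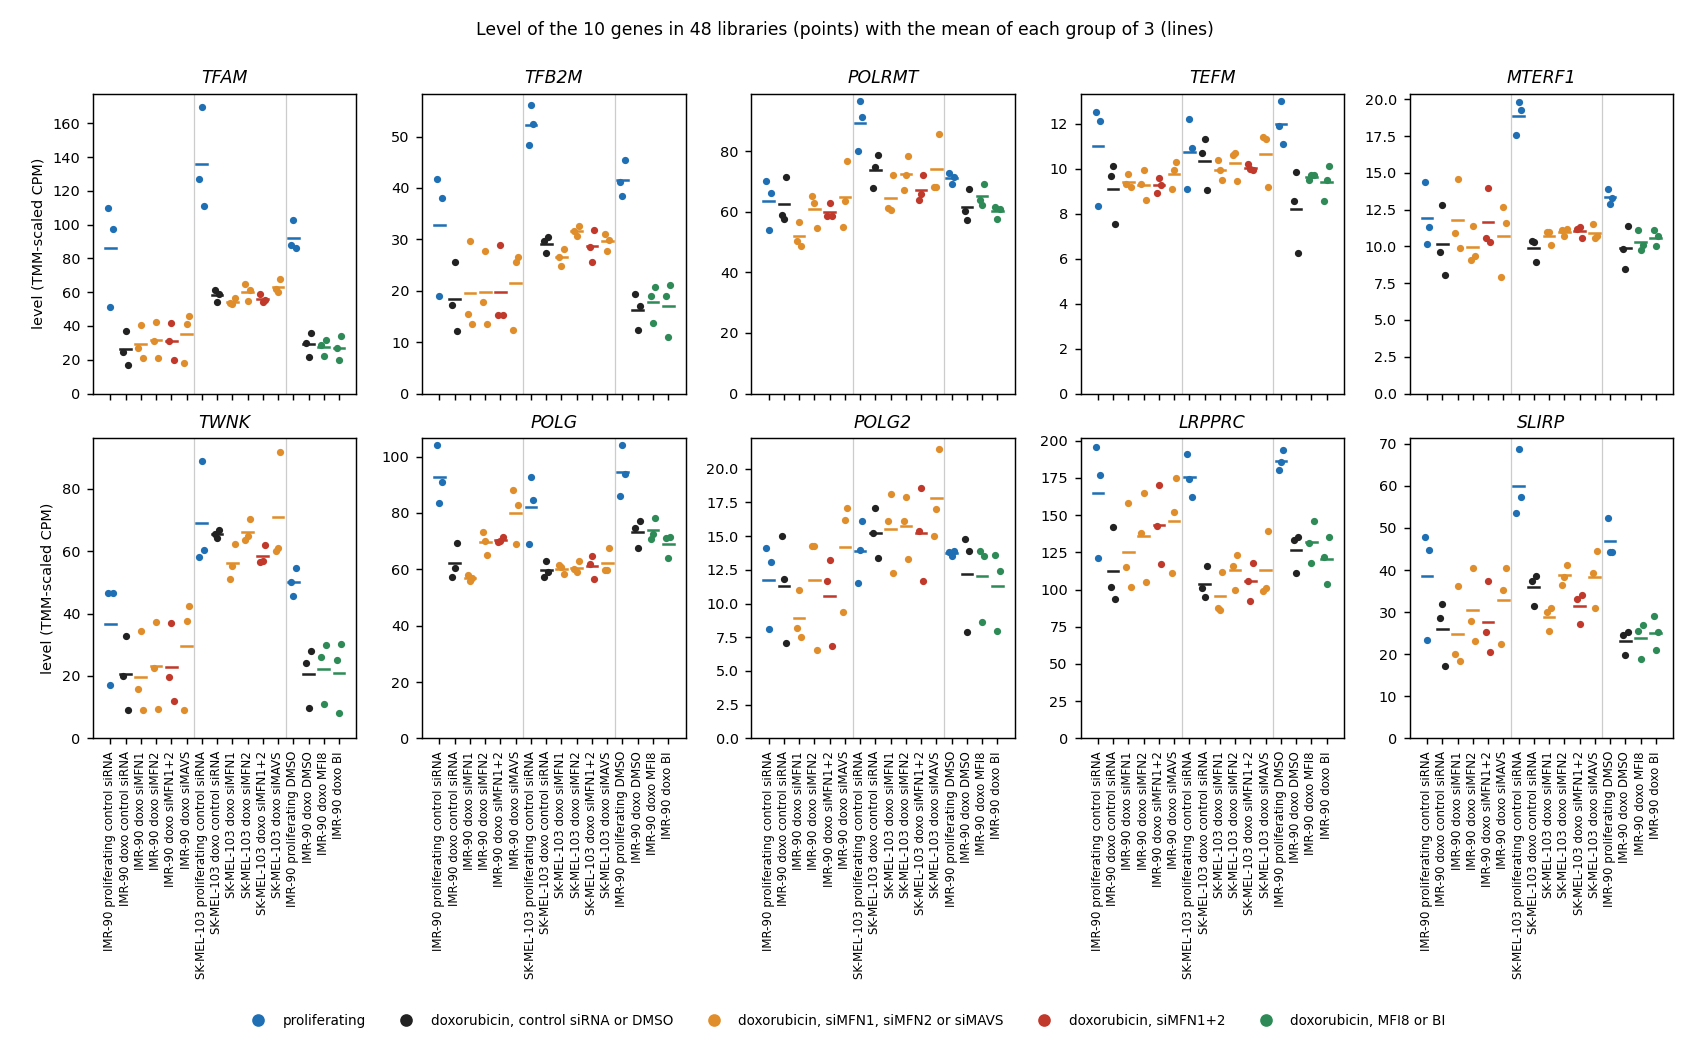
TMM-scaled CPM of the 10 genes in the 48 libraries (points) of 16 groups (horizontal axis), with lines at the group means. The proliferating groups (blue) are the highest for TFAM, TFB2M, LRPPRC and POLG, and the groups treated with doxorubicin lie close to each other within a cell line.

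Doxorubicin was compared with proliferating cells in 3 settings. Genes are named as fallen or risen only where the Benjamini-Hochberg adjusted p of edgeR's quasi-likelihood test (padj, over all genes tested) is below 0.05. In IMR-90 on day 7, 2 of the 10 genes fell and 0 rose, where 51.8 % of 19077 genes passed the test. In SK-MEL-103 on day 7, 7 fell and 0 rose, where 60.4 % of 17945 genes passed. In IMR-90 on day 9 in DMSO, 7 fell and 0 rose, where 55.9 % of 19056 genes passed. The count of genes that passed is thus below the share among all genes in the first setting and near it in the others. Their direction was 1-sided: the median log2 fold change of the 10 genes was -0.53, -0.69 and -0.53, against 0.09, 0.03 and 0.1 over all genes tested. Doxorubicin libraries did not overlap with proliferating ones for 2, 7 and 9 of the 10 genes, where 55.7 %, 62.6 % and 62.4 % of all genes tested were apart. The first count is below that share, the second near it and the third above it.

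TFAM, the packaging and promoter factor, fell in all 3 settings and had the lowest log2 fold change of the 10 genes in each. In IMR-90 on day 7 the proliferating libraries 1, 2 and 3 held 110, 51.5 and 97.4 CPM, and the doxorubicin libraries 24.8, 37.3 and 17 CPM. All 3 treated libraries lay below all 3 proliferating ones, although proliferating library 2 stood well under the other two (log2 fold change -1.68, SE 0.42, padj = 0.0037). In SK-MEL-103 the levels went from 127, 170 and 111 CPM to 61.5, 54.5 and 58.7 CPM (-1.32, SE 0.12, padj = 5.5e-08). On day 9 in IMR-90 they went from 87.7, 103 and 86.2 CPM to 29.9, 21.7 and 35.8 CPM (-1.66, SE 0.23, padj = 0.00015). Leaving out any 1 library kept the day 7 call in IMR-90, with log2 fold changes from -2.01 to -1.46.

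TFB2M, which melts the promoter, stood at 41.7, 18.9 and 38 CPM in proliferating IMR-90 and at 17.2, 25.6 and 12.1 CPM after doxorubicin on day 7. The groups overlapped, because proliferating library 2 lay below treated library 2, and the difference did not pass (-0.81, SE 0.42, padj = 0.12). Without that proliferating library TFB2M, TEFM and LRPPRC passed as well (log2 fold changes -1.09, -0.40 and -0.70), and the count for that setting went from 2 to 5 genes. On day 9 TFB2M fell from 41.1, 38.4 and 45.4 CPM to 19.3, 12.4 and 17 CPM (-1.35, SE 0.26, padj = 0.0012). In SK-MEL-103 it fell from 48.4, 56.1 and 52.4 CPM to 29.6, 27.4 and 30.4 CPM (-0.94, SE 0.1, padj = 3.1e-07). Treated libraries lay below all proliferating ones in both of these settings.

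POLRMT, the polymerase itself, differed least among the promoter-acting genes. Its IMR-90 libraries on day 7 overlapped fully, at 70.3, 54 and 66.4 CPM in proliferating and 58.9, 57.8 and 71.5 CPM in treated cells (0.01, SE 0.14, padj = 0.95). In SK-MEL-103 it fell from 80.2, 96.7 and 91.2 CPM to 67.8, 74.9 and 78.7 CPM (-0.37, SE 0.12, padj = 0.015), a call that ended without treated library 1 (padj = 0.073). On day 9 the log2 fold change was -0.2 (SE 0.09, padj = 0.071), and it passed without treated library 3 (padj = 0.027).

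The elongation factor TEFM was the second lowest of the 10 genes per kilobase. It fell on day 9 (-0.51, SE 0.15, padj = 0.012), from 11.9, 13 and 11.1 CPM to 8.57, 9.87 and 6.24 CPM. Its day 7 values were -0.23 in IMR-90 (padj = 0.21) and -0.13 in SK-MEL-103 (padj = 0.35), neither past the threshold. MTERF1, the termination factor, fell most in SK-MEL-103, from 17.6, 19.8 and 19.3 CPM to 10.4, 10.3 and 8.94 CPM (-1.02, SE 0.09, padj = 5.3e-08). The 2 groups lay far apart there. On day 9 in IMR-90 it fell by less (-0.43, SE 0.13, padj = 0.014), and on day 7 it did not pass (-0.2, SE 0.22, padj = 0.47). The day 9 calls of TEFM, MTERF1 and POLG ended in a fit with only the 6 libraries compared (padj = 0.06, 0.077 and 0.057).

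Among the replication genes, POLG, the polymerase subunit, fell in all 3 settings by similar amounts. It went from 104, 83.4 and 90.9 CPM to 57.2, 60.3 and 69.3 CPM in IMR-90 on day 7 (-0.55, SE 0.11, padj = 0.0008), with no overlap. In SK-MEL-103 its log2 fold change was -0.55 (SE 0.1, padj = 0.00015) and on day 9 -0.36 (SE 0.1, padj = 0.01). POLG shares 431 exonic bases with FANCI, a DNA repair gene on the opposite strand, and whether reads were counted by strand is not stated. FANCI went from 124 to 12.5 CPM, from 97.2 to 7.28 CPM and from 124 to 20.4 CPM in the 3 settings, so its reads could enter the POLG count, and this was not tested. TWNK was at 46.6, 17.1 and 46.7 CPM in proliferating IMR-90 and at 20.1, 32.8 and 9.05 CPM after doxorubicin on day 7, with overlapping groups (-0.79, SE 0.67, padj = 0.34). On day 9 all 3 treated libraries, at 24.3, 9.63 and 27.9 CPM, lay below the proliferating 50, 45.7 and 54.7 CPM. The call there was at the threshold: padj was 0.057 in edgeR and 0.032 in DESeq2 (log2 fold changes -1.28 and -1.23). In SK-MEL-103 the helicase did not pass (-0.17, SE 0.17, padj = 0.39). POLG2, the accessory subunit, did not pass in any setting, with log2 fold changes of -0.02, 0.06 and -0.16.

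LRPPRC and SLIRP, which form a complex on mitochondrial mRNA, both fell in SK-MEL-103 and on day 9 in IMR-90. LRPPRC went from 191, 174 and 162 CPM to 101, 94.7 and 116 CPM in SK-MEL-103 (-0.86, SE 0.15, padj = 0.00014). On day 9 it went from 180, 186 and 194 CPM to 133, 111 and 135 CPM (-0.55, SE 0.12, padj = 0.0034). Groups were apart in both. On day 7 in IMR-90 it stood at 196, 121 and 177 CPM against 102, 142 and 93.6 CPM (-0.51, SE 0.24, padj = 0.088), and it passed without treated library 2 (padj = 0.036). SLIRP had log2 fold changes of -0.83 in SK-MEL-103 (SE 0.14, padj = 6.6e-05) and -1.01 on day 9 (SE 0.17, padj = 0.00061). On day 9 its libraries went from 52.4, 44.3 and 44.2 CPM to 24.5, 19.8 and 25.2 CPM. Its day 7 value in IMR-90 did not pass (-0.54, SE 0.35, padj = 0.21). SLIRP shares 118 exonic bases with SNW1 on the opposite strand, and TWNK 149 with MRPL43.

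**Figure D3:**
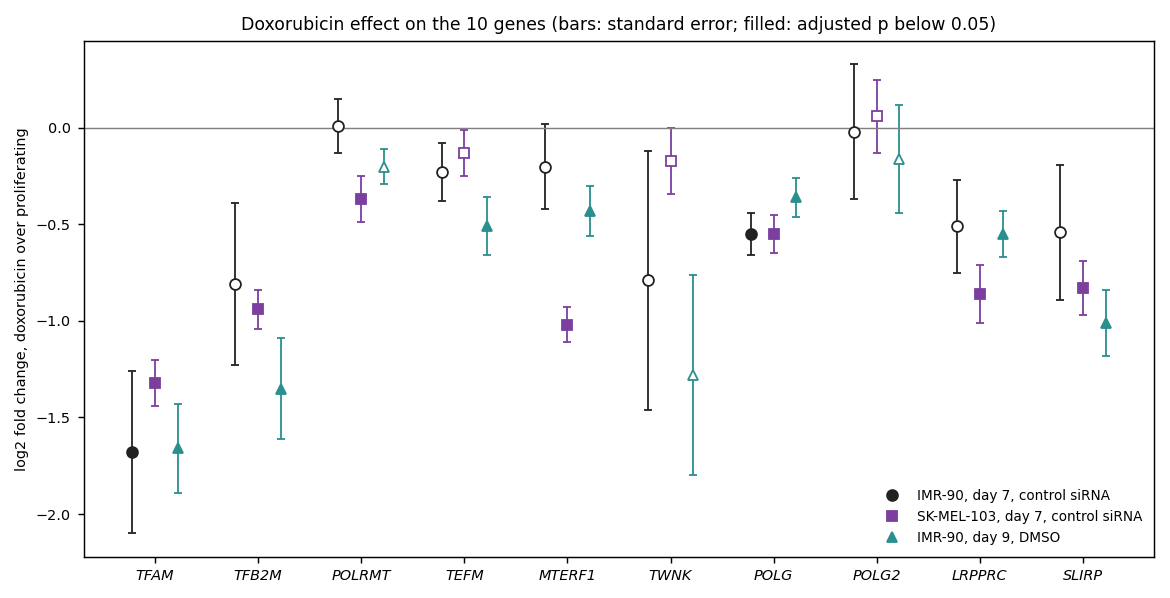
Log2 fold change of doxorubicin over proliferating cells (vertical axis) for the 10 genes in 3 settings, with bars of 1 standard error and filled symbols where the adjusted p is below 0.05. TFAM is lowest in each setting (-1.68, -1.32 and -1.66), POLG2 lies near 0, and the day 7 IMR-90 bars are the longest for most genes.

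The effect of doxorubicin was compared between the lines as 1 difference, SK-MEL-103 minus IMR-90, in a fit of 36 libraries, where 22.2 % of 20892 genes passed. Of the 10 genes only MTERF1 passed (-0.73, SE 0.24, padj = 0.028), with the lower fold change in the melanoma line. That call ended in 6 of 12 fits that each left out 1 library (differences -0.87 to -0.52, padj 0.012 to 0.13), namely control-siRNA doxorubicin library 2 and proliferating libraries 2 and 3 of IMR-90, and doxorubicin library 3 and proliferating libraries 2 and 3 of SK-MEL-103. For TFAM the difference was 0.45 (SE 0.44, padj = 0.51) and for POLRMT -0.29 (SE 0.18, padj = 0.28). TWNK differed by 0.71, with a standard error of 0.7, so a large difference between lines could not be seen or excluded for it.

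Within doxorubicin-treated cells the 10 genes were compared between each siRNA and the control siRNA, between each compound and DMSO, and between MFI8 and BI. In 11 such comparisons, 110 tests of a member in all, edgeR called 0 and DESeq2 called 0, and 2 had an unadjusted p below 0.05. Log2 fold changes ran from -0.35 (POLG2 with siMFN1 in IMR-90) to 0.5 (TWNK with siMAVS in IMR-90). The background was low as well. In IMR-90, 1.58 % of genes passed with siMFN1, 0.225 % with siMFN2, 1.57 % with siMFN1+2 and 0.634 % with siMAVS. In SK-MEL-103 the shares were 0.123 % with siMFN1, 0.0669 % with siMFN2, 0.240 % with siMFN1+2 and 0.1 % with siMAVS. For the differences between lines they were 0.153 %, 0.0431 %, 0.144 % and 0.0431 % in the same order, and again 0 of the 10 genes passed. At these shares 0 of 10 is what the genes at large show.

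Silencing both mitofusins left TFAM at 31.3, 41.9 and 19.8 CPM in IMR-90, beside 24.8, 37.3 and 17 CPM with the control siRNA (0.24, SE 0.41, padj = 0.85). In SK-MEL-103 it left TFAM at 59, 54.3 and 55.5 CPM, beside 61.5, 54.5 and 58.7 CPM (-0.02, SE 0.12, padj = 1). Libraries of the same number lie together in both comparisons. POLRMT had log2 fold changes of -0.07 (SE 0.14) in IMR-90 and -0.11 (SE 0.12) in SK-MEL-103 under the same siRNAs, and LRPPRC 0.35 (SE 0.24) and 0.05 (SE 0.15). Same-numbered libraries pair in these comparisons, and a block for the number over all groups called 0 of the 10 genes. With a block and only the 6 libraries compared, LRPPRC rose with siMFN1+2 in IMR-90 (0.35, SE 0.09, padj = 0.027), where 3260 of 18113 genes passed. In SK-MEL-103 with siMFN1, the same fit called SLIRP (-0.30, padj = 0.00057), TWNK (-0.22, padj = 0.009) and POLRMT (-0.18, padj = 0.015), where 3185 of 16804 genes passed. These 4 differences are at most 0.35 on the log2 scale.

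MAVS silencing in IMR-90 gave the highest median log2 fold change of the 10 genes among these comparisons, 0.31. It was 0.19 when the fit allowed for low and high library numbers: the third siMAVS library is number 35, while the third libraries of the other IMR-90 siRNA groups are numbers 89 to 93. POLG, at 88, 69.1 and 82.7 CPM beside 57.2, 60.3 and 69.3 CPM, had the lowest unadjusted p (0.0064, padj = 0.15). Its groups overlapped by a single pair of libraries, at 69.1 and 69.3 CPM. In SK-MEL-103 the median with siMAVS was 0.14 and no gene passed.

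None of the 10 genes passed with either compound. TFAM was at 29, 22.3 and 31.4 CPM with MFI8 and at 26.7, 19.9 and 34 CPM with BI, beside 29.9, 21.7 and 35.8 CPM in DMSO. Their log2 fold changes over DMSO ran from -0.07 to 0.21 with MFI8 and from -0.11 to 0.16 with BI. Across all genes edgeR called 0 % for MFI8, 0 % for BI and 0 % for MFI8 against BI, with 371, 175 and 326 genes at an unadjusted p below 0.05, and DESeq2 called 1, 0 and 0 genes. Same-numbered libraries pair here as well. With a replicate block and only the libraries compared, edgeR called 503 of 18303, 695 of 18113 and 98 of 18186 genes. None of the 10 genes was among them. The doses of the 2 compounds differ, so no comparison by dose was made.

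The mitochondrial mRNA level, the summed CPM of the 13 mRNAs that the mitochondrial genome encodes, went the other way from most of the 10 genes with doxorubicin. In IMR-90 on day 7 it was 9920, 12500 and 8570 CPM in proliferating libraries and 42400, 33400 and 38100 CPM in treated ones (log2 difference 1.89). In SK-MEL-103 the log2 difference was 1.68 and on day 9 1.88. Groups were apart each time, and the exact two-sided permutation p was 0.1, the smallest that 3 against 3 allows. Of the 13 mRNAs 12 rose in each setting. MT-ND6, the only mRNA of the light strand and one with little or no poly(A) tail, did not pass (0.79, 0.24 and 0.24). Poly(A) selection counts tailed molecules, and how reads shared with nuclear copies of mitochondrial DNA were counted is not stated.

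With siMFN1+2 the mitochondrial mRNA level was lower than with the control siRNA in both lines. The estimates for the 10 genes lay within 0.35 of their own level with the control siRNA on the log2 scale. Their log2 fold changes ran from -0.08 to 0.35 in IMR-90 and from -0.17 to 0.18 in SK-MEL-103. In IMR-90 the standard errors reached 0.67 for TWNK, 0.42 for TFB2M and 0.41 for TFAM. Larger differences could thus not be seen or excluded for these genes there. In IMR-90 the mitochondrial mRNA level was 5690, 8210 and 3140 CPM, beside 42400, 33400 and 38100 CPM with the control siRNA (log2 difference -2.84, exact p = 0.1). In SK-MEL-103 it was 8690, 11100 and 8680 CPM, beside 22900, 21300 and 19700 CPM (-1.17, exact p = 0.1). All libraries with siMFN1+2 lay below all with the control siRNA. The MFN2 knockdown was itself weaker in SK-MEL-103 (difference between lines 1.05, SE 0.16, padj = 0.0029). By edgeR 12 of the 13 mRNAs fell in IMR-90 (0 in a fit with only the 6 libraries) and 8 in SK-MEL-103 (5 without siMFN1+2 library 1). With siMFN2 alone in IMR-90 the log2 difference was -0.97 (exact p = 0.1). There edgeR called 0 of the 13 mRNAs, or 9 with the replicate block and only those libraries. In the same line the log2 difference was -0.43 with siMAVS (exact p = 0.1) and -0.29 with siMFN1 (exact p = 0.2). Of the 13 mRNAs edgeR called 0 with each. In SK-MEL-103 siMFN1, siMFN2 and siMAVS gave -0.15, -0.09 and -0.07 (exact p = 0.3, 0.3 and 0.7). Each siRNA shares its control libraries with the doxorubicin comparison, so the 2 sets of values are given side by side.

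**Figure D4:**
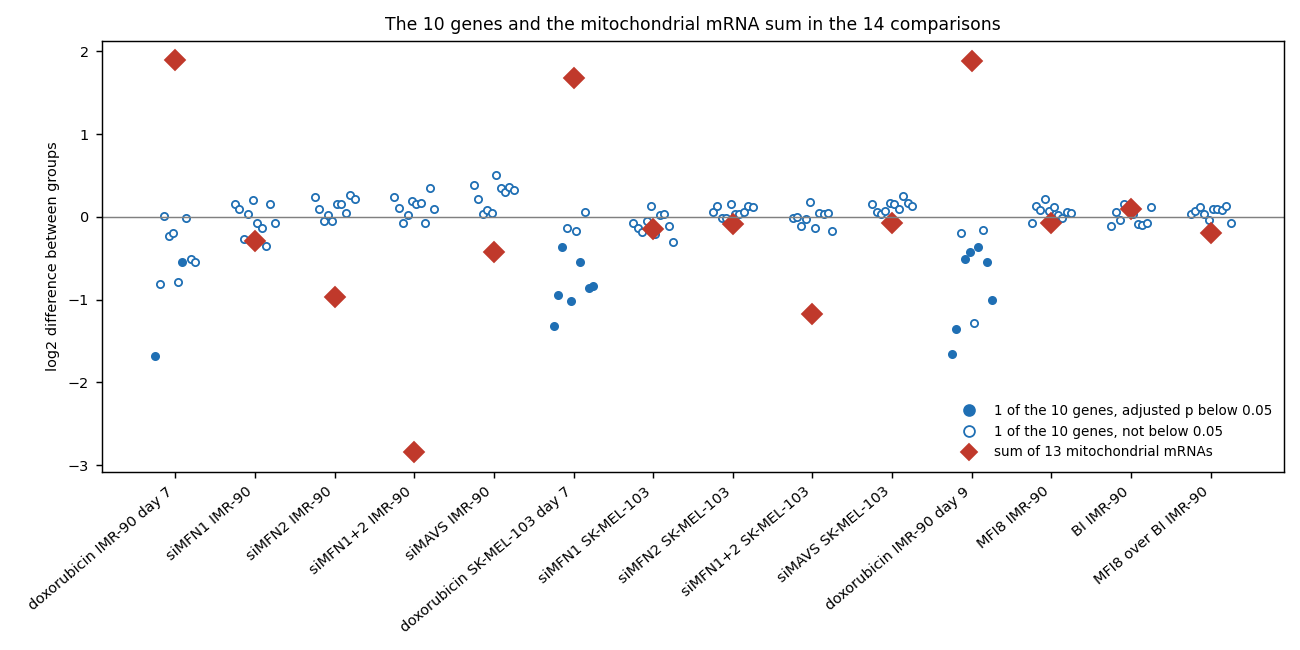
Log2 difference between groups (vertical axis) for the 10 genes (circles, filled where the adjusted p is below 0.05) and for the summed level of 13 mitochondrial mRNAs (diamonds) in 14 comparisons. The diamonds are at 1.89, 1.68 and 1.88 with doxorubicin, where most circles lie below 0, and at -2.84 and -1.17 with siMFN1+2, where the circles lie around 0.

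The ratio of mitochondrial mRNA counts to TFAM counts gives both movements in 1 number, comparable across groups but not across genes. It was 140 ± 89.1 in proliferating IMR-90 and 1620 ± 676 after doxorubicin. With siMFN1+2 it was 179 ± 18.9, with TFAM itself at 31 ± 11 CPM, beside 26.4 ± 10.2 CPM with the control siRNA. The proliferating mean was carried by library 2 (89.9, 243 and 87.9 by library), and the siMFN1+2 ratios of 182, 196 and 158 all lay above those of libraries 1 and 3. Mean ratios of 641 ± 79.2 with siMFN2, 1100 ± 193 with siMFN1 and 1000 ± 689 with siMAVS lay between. By library the ratios were 1710, 896 and 2240 with the control siRNA. Those with siMFN1 (1200, 878 and 1230) and siMAVS (1790, 546 and 664) overlapped them. Those with siMFN2 (725, 629 and 568) lay below all of them. In SK-MEL-103 the ratio was 49.8 ± 5.48 in proliferating cells, 366 ± 27.9 after doxorubicin and 169 ± 30.5 with siMFN1+2. On day 9 it was 94.2 ± 8.56 in proliferating cells, 1110 ± 42.6 in DMSO, 1100 ± 41.8 with MFI8 and 1320 ± 282 with BI. Per POLRMT count the ratio went from 167 ± 56.4 to 610 ± 97.7 with doxorubicin in IMR-90 and was 93.7 ± 38.6 with siMFN1+2.

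Over the 16 group means, all 10 genes had a negative Pearson correlation with the mitochondrial mRNA level on the log2 scale. TFB2M (-0.68), TFAM (-0.67), MTERF1 (-0.66), SLIRP (-0.64), TEFM (-0.54) and LRPPRC (-0.5) were the lowest, followed by TWNK (-0.46), POLRMT (-0.43), POLG (-0.42) and POLG2 (-0.16). Spearman's rho was -0.74 for TFAM and -0.35 for POLRMT. Negative values are common: over 10899 genes the lower quartile was -0.47 and the median -0.12. The groups share cell lines, controls and depth by library number, and the 3 proliferating groups sit apart from the rest, so these values are a description. Over the 13 treated groups, 9 of 10 genes were still negative, with TFAM at -0.37, POLG2 at -0.17, LRPPRC at -0.02 and POLG at 0.09. Over the 8 treated IMR-90 groups TFAM was at -0.38, LRPPRC at -0.62 and POLRMT at 0.06. Without the 2 groups farthest from the median in the gene itself, TFAM was at -0.48 over 14 groups and at -0.42 over 11 treated groups, and POLRMT at -0.09 and -0.02. Without the 2 treated groups farthest from the median in mitochondrial mRNA, TFAM was at -0.85, POLRMT at -0.59, POLG at 0.33 and LRPPRC at 0.4. Those left out were the siMFN1+2 groups of the 2 lines. The treated groups that remained came from both lines, and the part of cell line in these values was not tested. The values thus rest in part on few groups.

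**Figure D5:**
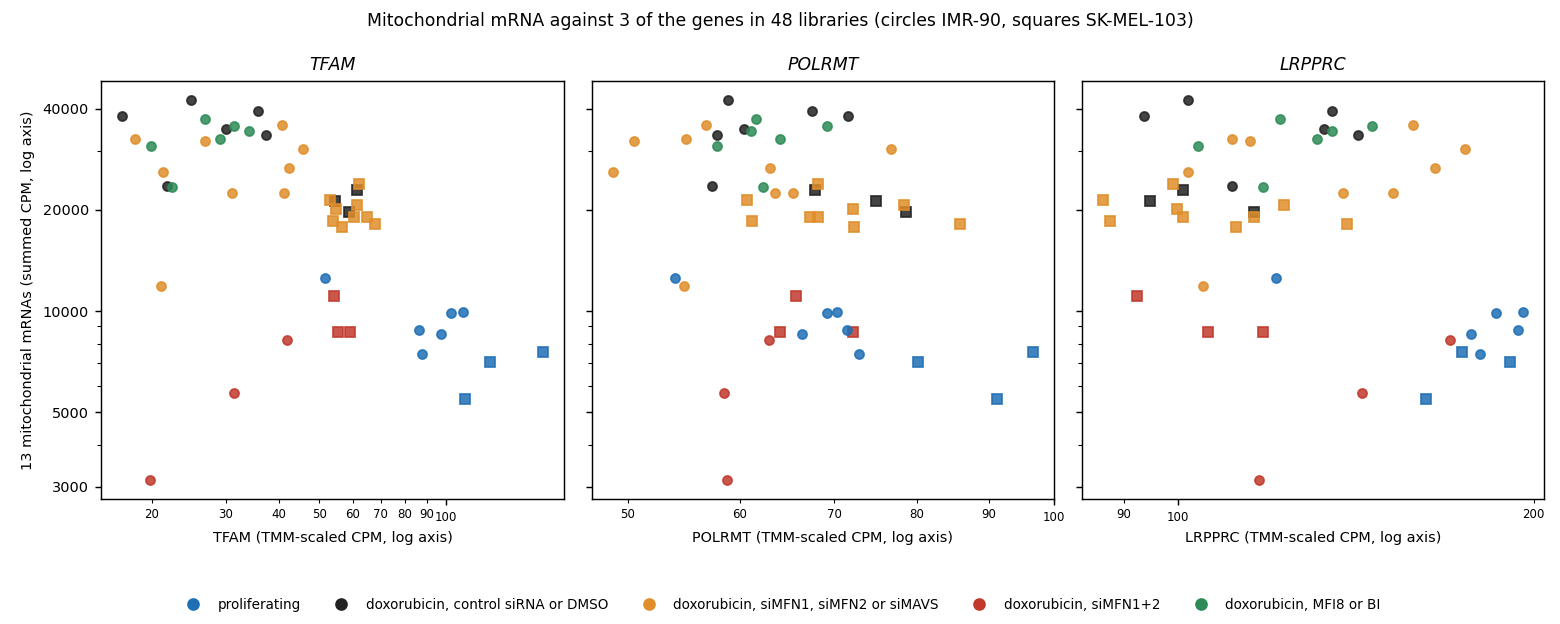
Summed level of 13 mitochondrial mRNAs (vertical log axis) against TFAM, POLRMT and LRPPRC (horizontal log axes) in 48 libraries, in TMM-scaled CPM. Within each line, proliferating libraries (blue) join high TFAM and low mitochondrial mRNA, and most treated libraries the reverse. The siMFN1+2 libraries (red) have low mitochondrial mRNA at the TFAM level of the other treated libraries of their line.

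How closely the genes followed each other over the 16 group means differed from pair to pair. TFAM, TFB2M and SLIRP were the closest, with correlations of 0.98 (TFAM and TFB2M), 0.96 (TFB2M and SLIRP) and 0.93 (TFAM and SLIRP). POLG and LRPPRC followed each other at 0.9, and TWNK and POLG2 at 0.86. The lowest pair was POLG2 and LRPPRC, at -0.28. Among 10898 other expressed genes, the most like TFAM were CCT5 (1), a chaperonin subunit, RPP30 (1), a subunit of RNase P, and EMG1 (0.99), a ribosomal RNA methyltransferase. For POLRMT they were GPT2 (0.95), OGFOD1 (0.95) and PTRH2 (0.94), and for LRPPRC HSPA4, POLR1E and BOP1 (each 0.98). All are Pearson correlations over the same 16 means.

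Other genes of the same pathway were counted in lists given whole. Over all genes tested, 24.4 %, 30.6 % and 27.1 % fell in the 3 doxorubicin settings (IMR-90 on day 7, SK-MEL-103, IMR-90 on day 9), and 27.4 %, 29.8 % and 28.8 % rose. In lists this short, counts such as 6 of 17 or 2 of 5 are not far from those shares. Of 10 other genes of mitochondrial DNA replication and repair, 8 fell in IMR-90 on day 7, 9 in SK-MEL-103 and 9 on day 9, and 0 rose. DNA2, a nuclease and helicase that also serves the nucleus, was lowest there (-2.37, -3.08 and -2.26). Of 4 nucleoid genes 4, 2 and 4 fell, with ATAD3A at -1.16 and -1.08 on day 7 and the protease LONP1, which degrades TFAM, at -1.34 on day 9. Of 6 further transcription and termination factors 3, 3 and 5 fell and 1, 0 and 0 rose. MTERF3 was lowest on day 7 (-1.63 and -1.26) and MRPL12 on day 9 (-1.35), and MTRES1 rose in IMR-90 on day 7 (0.45). Of 17 RNA processing genes 6, 11 and 12 fell and 0 rose, with FASTKD3 lowest each time (-1.2, -1.24 and -1.26). Of 5 RNA degradation genes 2, 3 and 3 fell, led by the exonuclease gene PNPT1 (-1.15, -0.81 and -1.34). Nucleotide supply was mixed: of 11 genes 5, 6 and 7 fell and 2, 2 and 3 rose. There RRM2, the cell-cycle subunit of ribonucleotide reductase, fell by 4.09, 8.63 and 2.77 on the log2 scale. RRM2B, the p53-induced subunit of the same enzyme, rose in IMR-90 (1.56 on day 7 and 1.29 on day 9), and the mitochondrial thymidine kinase TK2 in SK-MEL-103 (1.62). Of 9 upstream regulators 5, 8 and 5 fell and 0 rose. NRF1, whose motif is printed above for 3 of the genes, was lowest in IMR-90 (-1.14 on day 7 and -1.28 on day 9). The coactivator PPARGC1B was lowest in SK-MEL-103 (-1.74). Of the 3 genes with the NRF1 motif, TFAM fell in IMR-90 (-1.68 on day 7 and -1.66 on day 9). POLRMT (0.01 and -0.2) and POLG2 (-0.02 and -0.16) did not pass there. In SK-MEL-103 TFAM (-1.32) and POLRMT (-0.37) fell, and POLG2 (0.06) did not pass. Of TFB2M, TEFM, POLG and LRPPRC, whose windows held neither motif, only POLG fell in IMR-90 on day 7. All of them fell on day 9, and all but TEFM in SK-MEL-103. Whether NRF1 bears on the level of the 10 genes was not tested.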

How the data were processed

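Poly(A) RNA libraries (stranded kit, 10 PCR cycles, per the labels' protocols) were read with Trim Galore 0.6.7, STAR 2.7.10a and featureCounts on GRCh38, per the submitters' processing notes. Annotation release, strand setting and treatment of multiply mapped reads are not given in the sources used here. The deposited table holds raw counts per Ensembl gene.

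In R 4.3.3, edgeR 4.0.16 filtered genes (filterByExpr by group), scaled by TMM and tested all groups of 1 experiment by its newer quasi-likelihood F test, taken because it matches an earlier account of these data. Differences between lines used 1 fit of 36 libraries. SE is the log2 fold change divided by the root of the F statistic. Alternatives were DESeq2 1.42.0, other filters, replicate blocks, subsets and single libraries left out. Levels are edgeR CPM over 48 libraries, and correlations used genes whose log2 CPM averaged 2 or more. Same-numbered libraries pair (deviations correlate above 0.1 for every number) in the siRNA and compound comparisons other than siMAVS in IMR-90, and not with doxorubicin. A SK-MEL-103 siMFN2 library without a number was taken as number 1. No 2 libraries of the same group were copies (chi-square at least 11.1 times its degrees of freedom over 48 pairs). Libraries of different groups were not compared in this way.

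The 10 genes, lists and tests were chosen with earlier results of these data known. Text names all 10 genes, the siRNA targets, the called genes with the highest and lowest fold change of each list, and the 3 genes most like TFAM, POLRMT and LRPPRC. Markers and the overlapping genes FANCI, SNW1 and MRPL43 were named after values were seen.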

Additional observations from a re-analysis of the deposited data

Results flagged for a closer look

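The effect of doxorubicin on day 7 differed between the lines, by a test of the difference itself (SK-MEL-103 minus IMR-90, edgeR, adjusted over 20892 genes), for 1 of the 10 genes and for named genes of the pathway lists. MTERF1 differed by -0.73 (padj = 0.028). Among mitochondrial mRNAs MT-ND3 differed by -1.18 (padj = 0.044), so its rise was smaller in SK-MEL-103. Differences above 0 were found for MTERF2 (0.72, padj = 0.031), PRIMPOL, a primase and polymerase (0.86, padj = 0.011), LONP1 (0.85, padj = 0.001), TK2 (0.85, padj = 0.0075) and TBRG4 (0.57, padj = 0.029). Differences below 0 were found for RRM2 (-4.43, padj = 0.00058), the RNA exonuclease REXO2 (-0.6, padj = 0.046) and PPARGC1B (-1.68, padj = 0.043). The calls of PRIMPOL, LONP1, TK2 and RRM2 held in each of 12 fits that left out 1 library. Those of MTERF1, MT-ND3, MTERF2, TBRG4, REXO2 and PPARGC1B ended in 6, 9, 6, 5, 10 and 8 of the 12, with the same sign throughout. In fits with only the libraries compared, with or without the replicate block, PRIMPOL, LONP1 and TK2 did not pass. MT-ND3 did not pass without the filter on low counts (padj = 0.065) or with the replicate block and only those libraries (padj = 0.061).

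With siMFN1+2 the difference between lines passed for 4 of the 13 mitochondrial mRNAs: MT-ND1 (1.74, padj = 0.026), MT-ND4L (1.69, padj = 0.039), MT-ND4 (1.83, padj = 0.016) and MT-ND5 (2.1, padj = 0.026), whose falls were smaller in SK-MEL-103. The count ran from 0 to 10 when single libraries were left out, was 9 by DESeq2, 0 with only the libraries compared and 13 with the replicate block in those libraries. The MT-ND5 call ended in 9 of 12 fits that left out 1 library.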

How the results depend on the processing

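The number of the 10 genes called kept within 1.5 times its value, for the 14 comparisons and 5 differences, under DESeq2, no mitochondrial genes in the library size and the older quasi-likelihood method (added after seeing the data). Exceptions under the other alternatives follow. With a replicate block and only the libraries compared, 1 gene was called for doxorubicin in IMR-90 on day 7 (2 as reported: TFAM stayed, at padj = 0.045, and POLG did not, at padj = 0.074), 1 for siMFN1+2 in IMR-90 (0), 3 for siMFN1 in SK-MEL-103 (0) and 0 for the doxorubicin difference between lines (1). Without the filter that difference also gave 0. Leaving out single libraries gave 2 to 5 genes for doxorubicin in IMR-90 on day 7 and 0 to 1 for the difference. Doxorubicin libraries share only a number (lowest correlation -0.54, -0.09 and 0.08). A block over all groups gave 3, 7 and 9 genes there, adding TFB2M on day 7 (-0.94, padj = 0.049), and POLRMT and TWNK on day 9. The block moved no other of these counts by over 1.5 times. Correlations with mitochondrial mRNA moved by more than their spread over library numbers in smaller sets of groups. In the IMR-90 siRNA groups they were -0.14 for POLRMT, -0.43 for TFAM, -0.41 for TFB2M, -0.32 for TEFM, -0.54 for MTERF1, 0.05 for POLG2 and -0.36 for SLIRP. In the SK-MEL-103 siRNA groups they were -0.24 for TEFM, -0.82 for MTERF1, -0.02 for TWNK, -0.79 for POLG, 0.70 for POLG2 and -0.74 for LRPPRC. Over the 4 groups of the day 9 experiment, 1 of them proliferating, they ran from -1 to -0.9, with POLG2 at -0.94. Without TMM the highest group mean over the lowest was 1.92 for POLRMT, 2.18 for MTERF1 and 1.85 for LRPPRC. The cause was not tested. With 3 libraries a group, TFAM had a standard error of 0.41 between treated IMR-90 siRNA groups in the fit without a replicate block. In that fit, with siMFN1+2, MT-ND6 did not pass at -1.09 (SE 0.41, padj = 0.19). The mitochondrial ribosomal RNA MT-RNR2 passed narrowly at -1.89 (SE 0.44, padj = 0.048). Differences of about 1 or less on the log2 scale, and some larger ones, could thus be missed for TFAM there.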
